A study of Homo sapiens with 7 samples.

Results

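MicroRNA host genes are transcribed as long primary RNAs from which one or more microRNAs are cut, and 8 of them were described here from chromatin immunoprecipitation sequencing (ChIP-seq) of HCT116 cells, a human colorectal carcinoma line. The genes were MIRLET7BHG, MIR17HG, MIR22HG, MIR210HG, MIR31HG, MIR100HG, MIR155HG and MIR99AHG, taken by name out of 64449 genes of GENCODE release 44 on the hg19 build. All were annotated as long non-coding RNA (lncRNA) genes, a class of 18702 genes, and 75 other genes carried a name of the form MIR...HG. The cells, for which the labels name no treatment, were grown to 200000 a well and sheared in the plate with the PIXUL multi-sample ultrasound instrument. Chromatin from 1 well was immunoprecipitated for each library, with 7 antibodies in all, and peak lists for 6 of them were used: H3K4me3, H3K9Ac, H3K4me1, H3K36me3, H3K27me3 and CTCF. The H3K27Ac library was not analysed here. Each antibody had 1 library, so no value has a replicate, no difference was tested, and the read depth behind a peak is unknown because the lists hold no read counts. The 8 genes were picked with peaks of these same lists in view, so their values are a description.

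In the nucleus the enzyme Drosha, with its partner DGCR8, cuts a hairpin from the primary transcript, and Dicer then trims the hairpin to the mature microRNA in the cytoplasm. The seed, bases 2 to 8 of the mature strand, pairs with target messages, so microRNAs with the same seed are placed in a family. H3K4me3 and H3K9Ac mark active promoters, H3K4me1 marks enhancers and the flanks of promoters, H3K36me3 is laid down along transcribed gene bodies, H3K27me3 is the Polycomb mark of repressed genes, and CTCF, which reads DNA through its zinc fingers, sits at insulators and loop anchors. These marks bear on the promoter and the body of the host, whereas the amount of mature microRNA was not measured.

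The hosts carried 21 microRNA genes on their own strand. The main mature products are shown from RefSeq, because they set out which hosts make members of the same family, with the seed in capitals. MIR17HG is the host of the oncogenic miR-17 cluster, a target of the transcription factor MYC, and gives 6 microRNAs:
hsa-miR-17-5p: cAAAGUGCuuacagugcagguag
hsa-miR-20a-5p: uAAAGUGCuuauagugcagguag
hsa-miR-18a-5p: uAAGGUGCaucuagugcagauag
hsa-miR-19a-3p: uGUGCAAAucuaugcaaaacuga
hsa-miR-19b-3p: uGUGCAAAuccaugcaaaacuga
hsa-miR-92a-3p: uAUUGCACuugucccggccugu

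The let-7 family, which restrains growth and is blocked by the LIN28 proteins, was spread over 3 hosts (MIRLET7BHG, MIR100HG and MIR99AHG). MIR100HG and MIR99AHG hold matching trios of a miR-99 family member, a let-7 gene and a miR-125b gene:
hsa-let-7a-5p: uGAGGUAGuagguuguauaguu
hsa-let-7b-5p: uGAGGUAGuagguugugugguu
hsa-let-7c-5p: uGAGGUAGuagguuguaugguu
hsa-miR-100-5p: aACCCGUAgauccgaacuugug
hsa-miR-99a-5p: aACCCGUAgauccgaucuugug
hsa-miR-125b-5p: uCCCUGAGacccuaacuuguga

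Counted from 1 at the 5′ end, with the base of the first-named microRNA first, hsa-miR-100-5p and hsa-miR-99a-5p differed by 1 substitution (A16U), and hsa-let-7a-5p and hsa-let-7c-5p by 1 (A19G). Both lay outside the seed. The miR-125b product was the same from either host, with 0 differences. The remaining 4 hosts each gave a microRNA with a seed of its own, namely miR-22, miR-210 of the hypoxia response, miR-31, and miR-155 of activated B cells and macrophages:
hsa-miR-22-3p: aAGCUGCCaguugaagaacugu
hsa-miR-210-3p: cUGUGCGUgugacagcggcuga
hsa-miR-31-5p: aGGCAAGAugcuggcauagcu
hsa-miR-155-5p: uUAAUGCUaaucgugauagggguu

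Peaks were kept as past the limits where they met those of the study's methods. For H3K4me1 and H3K27me3 the −log10 q had to exceed 3 and the fold enrichment over input 2, and for H3K4me3, H3K9Ac and H3K36me3 the −log10 q had to exceed 10 and the fold enrichment 5. CTCF, for which the methods name no limit, was held to the second set. Over the 8 gene bodies with 10 kb on each side lay 147 intervals, of which 68 were past the limits and 79 were not. MIR100HG had the most, with 48 intervals and 15 past the limits, and MIR155HG the fewest, with 2 intervals and 0 past them. Peaks past the limits lay over 6 hosts for H3K4me3, H3K9Ac, H3K4me1 and CTCF, over 1 for H3K27me3 and over 0 for H3K36me3. Over all annotated genes with the same flanks the shares were 36.7% for H3K4me3, 36.9% for H3K9Ac, 46.3% for H3K4me1, 38.8% for CTCF, 3.17% for H3K27me3 and 0.455% for H3K36me3. H3K4me1 gave 24 peaks past the limits, CTCF 17, H3K4me3 13, H3K9Ac 12, H3K27me3 2 and H3K36me3 0. The limits left few H3K36me3 peaks anywhere, as 90 of 40010 H3K36me3 intervals passed across the genome. Few H3K27me3 intervals passed either, 1552 of 55270, so the lack of a passing peak of these marks says little.

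A peak of H3K4me3 past the limits lay within 1 kb of the canonical transcription start site (TSS) of 5 of the 8 hosts, against 25.6% of all annotated genes, 19.5% of lncRNA genes and 23 of the 75 other MIR...HG genes. The same 5 hosts, MIRLET7BHG, MIR17HG, MIR22HG, MIR210HG and MIR31HG, had H3K9Ac (26.1% of all genes, 20.5% of lncRNA genes) and H3K4me1 (24.9% and 22.9%) there. H3K27me3 was found at 1 host, MIR17HG (1.19% of all genes and 1.09% of lncRNA genes), CTCF at 2, MIR17HG and MIR100HG (7.99% and 8.35%), and H3K36me3 at 0 (0.202% and 0.118%). The hosts were chosen on these lists, so nothing is read from the counts standing above the background. MIRLET7BHG, MIR22HG, MIR210HG and MIR31HG shared the pattern H3K4me3, H3K9Ac and H3K4me1 with no other mark, which 14.4% of all genes also had. MIR155HG and MIR99AHG had none of the 6 marks at the start, like 65.5% of all genes and 39 of the other MIR...HG genes.

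**Figure D1:**
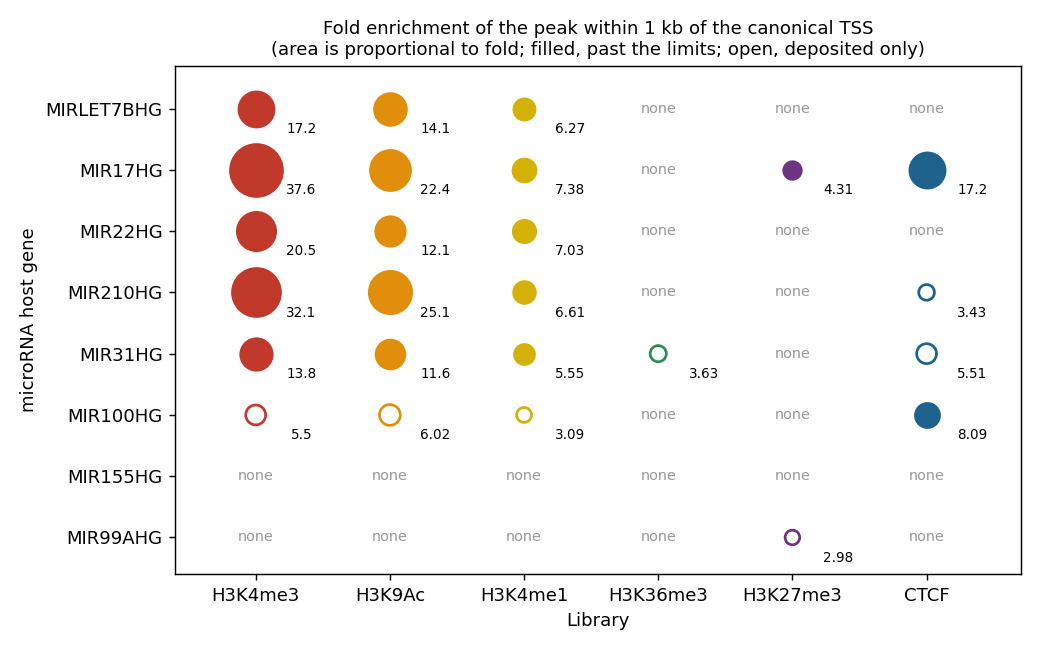
Fold enrichment over input of the strongest interval within 1 kb of the canonical TSS of each host (rows) for each antibody (columns), as circles whose area is proportional to the value, filled where past the limits and open where not. MIR17HG has the highest H3K4me3 value (37.6) and MIR155HG has no interval of any antibody.

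MIR17HG had the strongest promoter of the 8 by H3K4me3. The gene lies on chromosome 13 (chr13:91999940-92049846, plus strand, 16 transcripts). Its H3K4me3 peak (chr13:91999434-92002552) reached a fold enrichment of 37.6, above 96.2% of the genes with a passing H3K4me3 peak at the TSS, and its H3K9Ac peak (chr13:91999176-92003593) 22.4, above 97.4%. The H3K4me1 peak of 7.38 was a narrow interval of 768 bp that ended 35 bp upstream of the TSS. The 6 hairpins, intronic in the canonical transcript, ran from MIR17 at chr13:92002859-92002942, 2908 bp from the TSS, through MIR18A, MIR19A, MIR20A and MIR19B1 to MIR92A1 at chr13:92003568-92003645, 3617 bp from it. The H3K9Ac peak covered the first 5 and ended inside MIR92A1. The H3K4me3 peak stopped 307 bp short of the first of them. An H3K36me3 interval of 7500 bp over the same hairpins was enriched 6.06-fold with a −log10 q of 8.60, the nearest of any H3K36me3 interval over the hosts to the limits without passing them.

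The MIR17HG start also held H3K27me3 and CTCF. The peaks inside the H3K27me3 list carry a name that does not mention HCT116, unlike those of the other lists, and the label of the sample was followed. The H3K27me3 peak (chr13:91990013-91999441, 9429 bp, fold enrichment 4.31) lay upstream and ended 510 bp before the TSS, overlapping the H3K4me3 peak by its last bases. An H3K4me1 peak of 4.50 beyond the 3′ end of MIR17HG covered the start of GPC5, a cell-surface proteoglycan. A second H3K27me3 peak, of 3.81, lay beyond the 3′ end of the gene, between 51408 and 58277 bp from the TSS. H3K4me3 and H3K27me3 were both within 1 kb of the TSS at 107 genes, 0.166% of all, and at 0.139% of lncRNA genes. With a window of 500 bp in place of 1 kb the H3K27me3 peak no longer counted. The CTCF peak, of 17.2, lay 486 to 1704 bp inside the gene. The combination of 5 marks was found at 24 genes in all and at 0 of the other MIR...HG genes.

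The MIR17HG promoter is printed because CpG dinucleotides, the sites of DNA methylation and a feature of active promoters, were dense in it. The 300 bases around the RefSeq start (chr13:91999691-91999990 of hg19, plus strand, CpG in capitals) held 42 CpG, more than 94.2% of RefSeq promoters:
MIR17HG promoter: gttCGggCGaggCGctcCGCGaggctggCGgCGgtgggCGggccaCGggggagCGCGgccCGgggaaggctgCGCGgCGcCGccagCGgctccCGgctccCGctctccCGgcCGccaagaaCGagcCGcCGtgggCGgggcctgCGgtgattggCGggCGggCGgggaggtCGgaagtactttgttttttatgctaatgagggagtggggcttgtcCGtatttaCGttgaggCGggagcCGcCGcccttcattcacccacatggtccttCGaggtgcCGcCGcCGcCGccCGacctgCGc

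MIR210HG, the host of the hypoxia microRNA miR-210, had the highest H3K9Ac value. It is a short gene of 2801 bp on chromosome 11 (chr11:565657-568457, minus strand). The H3K4me3 peak at its start (chr11:567744-569553) had a fold enrichment of 32.1, and the H3K9Ac peak (chr11:567390-569858) 25.1, above 99.1% of the genes with a passing H3K9Ac peak at the TSS. An H3K4me1 peak of 13013 bp, with a fold enrichment of 6.61, covered the whole gene and also the starts of LMNTD2 and RASSF7. MIR210 (chr11:568089-568198) lay in an intron 251 bp from the TSS, under all 3 peaks, and was the only one of the 21 microRNA genes under a passing H3K4me3 peak. The neighbouring starts of RASSF7 and LMNTD2 (32.4) and of PHRF1 (28.5) had H3K4me3 peaks of like height within 10 kb of the gene.

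The MIR210HG promoter (chr11:568408-568707, minus strand, CpG in capitals) is shown because it contains ACGTG, a form of the core of the hypoxia response element. Only that form was counted, and it was found in 21.4% of 35116 RefSeq promoters searched on both strands. The RefSeq promoters of MIR155HG, MIR22HG and MIRLET7BHG and 1 of those of MIR100HG held it as well, so it did not set MIR210HG apart. It held 44 CpG, more than 95.8% of promoters:
MIR210HG promoter: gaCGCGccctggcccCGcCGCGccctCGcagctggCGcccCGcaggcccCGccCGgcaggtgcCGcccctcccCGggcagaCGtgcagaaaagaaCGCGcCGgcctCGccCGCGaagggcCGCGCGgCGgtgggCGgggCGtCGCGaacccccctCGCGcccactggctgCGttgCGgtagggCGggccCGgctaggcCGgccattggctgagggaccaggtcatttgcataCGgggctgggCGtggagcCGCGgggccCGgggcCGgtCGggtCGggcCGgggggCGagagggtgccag

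MIR22HG and MIRLET7BHG came next by H3K4me3. MIR22HG (chr17:1614741-1620468, minus strand) had an H3K4me3 peak of 20.5 (chr17:1617454-1621605), above 41.4% of the marked genes, with H3K9Ac at 12.1 and H3K4me1 at 7.03. All 32 of its transcripts started under the H3K4me3 peak. The mature arms of MIR22, in an exon 3201 bp from the TSS, lay 187 bp past that peak and under a CTCF peak of 8.05 (chr17:1616978-1617600), the only CTCF peak over a microRNA among the hosts. By −log10 q, at 13.1, that CTCF peak was the weakest of the hosts' to pass, whereas by fold enrichment a MIR100HG peak was lower, at 7.88. The H3K4me3 peaks of the neighbouring TLCD2 (19.9) and WDR81 (27.6) flanked the gene.

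**Figure D2:**
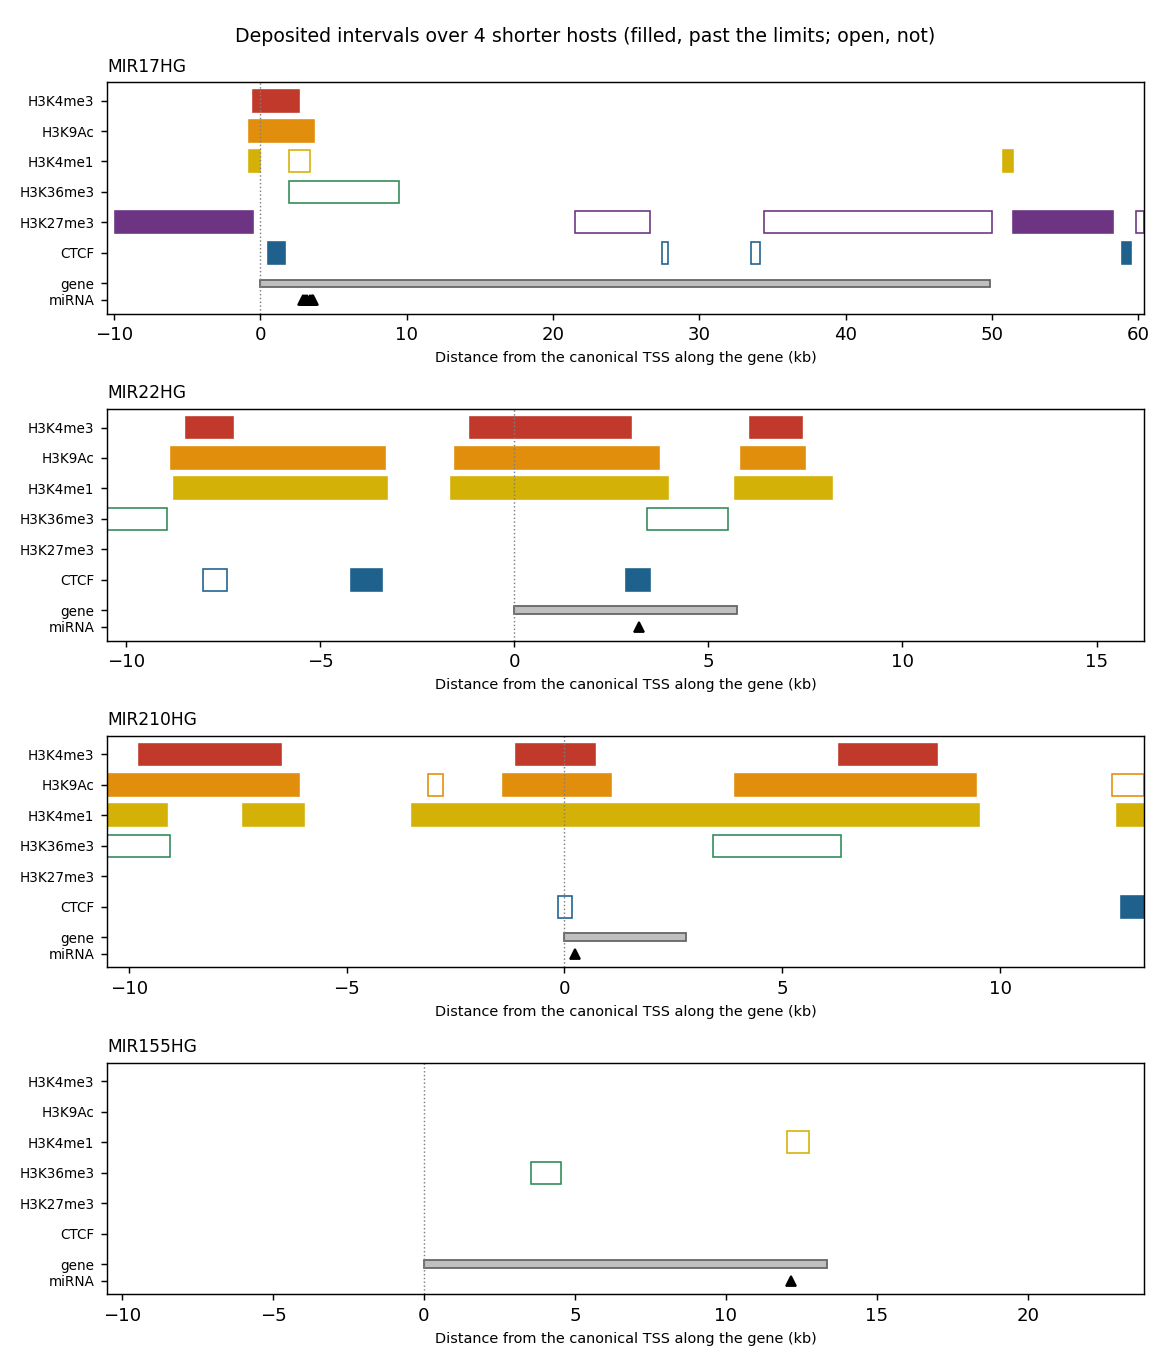
Intervals of the 6 lists over MIR17HG, MIR22HG, MIR210HG and MIR155HG, drawn to scale by distance from the canonical TSS in kb, filled where past the limits and open where not, with the microRNAs marked. MIR210 sits under the H3K4me3 peak of its host, whereas the MIR155 arms sit under an H3K4me1 interval of 3.84 that is not past the limits.

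MIRLET7BHG (chr22:46449749-46509808, plus strand, 60.1 kb) carried the widest H3K4me3 peak of the list. At its start the H3K4me3 peak was 2217 bp wide with a fold enrichment of 17.2, above 26.7% of the marked genes, and was shared with the starts of PRR34, PRR34-AS1 and ENSG00000273289. The wide peak, of 15716 bp and a fold enrichment of 17.4, lay inside the gene at chr22:46462445-46478160 and ranked first by width among 12749 passing H3K4me3 peaks. It covered the starts of LINC02939, of ENSG00000289044 and of 3 transcripts of the host. An H3K9Ac peak of 23000 bp (14.9) ran over it. Another H3K4me3 peak, of 8.52, lay at chr22:46480507-46482230, where 5 transcripts and the RefSeq start of the gene, 32.1 kb from the GENCODE one, were found. H3K4me3 covered 31.2% of the gene body, H3K9Ac 41.3% and H3K4me1 74.6%.

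The let-7 genes lay at the far end of MIRLET7BHG, outside its promoter marks. MIRLET7A3 was 58.9 kb and MIRLET7B (chr22:46509566-46509648) 59.8 kb from the TSS, each in an exon of 1 transcript, with MIR4763 between them. The canonical transcript did not span any of the 3. All 3 lay under an H3K4me1 peak of 15623 bp with a fold enrichment of 4.73, and under no H3K4me3 or H3K9Ac interval. An H3K36me3 interval of 40983 bp over them and over MIR3619, an intronic microRNA gene 37.2 kb from the TSS under an H3K4me1 peak of 7.68, had a fold enrichment of 4.18 and was not past the limits.

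MIR31HG (chr9:21380072-21559890, minus strand, 179.8 kb) had the lowest H3K4me3 value of the 5 marked starts and very wide flanking marks. The H3K4me3 value was 13.8 (chr9:21555248-21560603), above 15.7% of the marked genes, and 20 of its 27 transcripts started under it. The H3K9Ac peak across the start was 51764 bp wide, rank 8 by width of 12720, and the H3K4me1 peak 51787 bp, rank 12 of 32292. Relative to the TSS the H3K9Ac peak ran from −34287 to 17476 bp. A second start in the gene body, that of the lncRNA ENSG00000261696, had an H3K4me3 peak of 9.53 (chr9:21395795-21396478) and a CTCF peak of 13.7. MIR31, a microRNA with reported roles in colorectal cancer, lay in an intron 47.7 kb from the TSS (chr9:21512114-21512184), under an H3K4me1 peak of 4.26 and an H3K36me3 interval of 4.59 that was not past the limits.

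**Figure D3:**
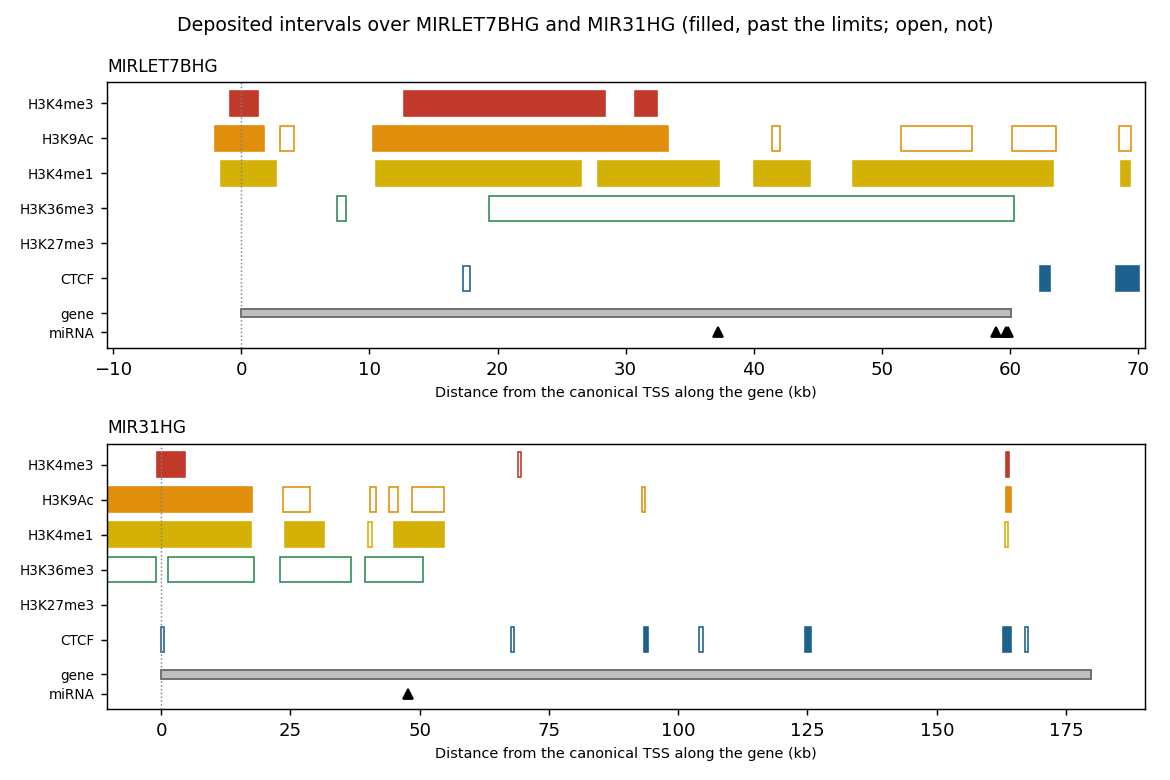
Intervals of the 6 lists over hosts with wide marks, drawn to scale by distance from the canonical TSS in kb, filled where past the limits and open where not, with the microRNAs marked by triangles. The H3K9Ac and H3K4me1 peaks over the MIR31HG start are cut at the left edge, 10 kb before the TSS, and the widest H3K4me3 peak lies inside MIRLET7BHG.

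MIR100HG and MIR99AHG carry paralogous microRNAs but differed over their bodies. MIR100HG (chr11:121899033-122427429, minus strand, 528.4 kb) had 15 intervals past the limits, and MIR99AHG (chr21:17300616-18018683, plus strand, 718.1 kb) had 0 of 5. The MIR100HG marks stood away from its canonical start. At that start the H3K4me3 interval, enriched 5.50-fold with a −log10 q of 7.63, was just outside the limits. The H3K9Ac interval there was nearer to them, at 6.02 and a −log10 q of 9.56. The H3K4me1 interval had a fold enrichment of 3.09 and fell short by its −log10 q of 1.78. CTCF, at 8.09, was the only mark to pass. With all deposited intervals MIR100HG would join the H3K4me3, H3K9Ac and H3K4me1 hosts, making 6 of each. An internal H3K4me3 peak (chr11:122072629-122074379), at 6.51 and a −log10 q of 11.1, was just inside them, 353050 to 354800 bp downstream. It was among the weakest to pass, with 0.682% of passing H3K4me3 peaks lower, and 8 of 107 transcripts started under it.

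The internal start of MIR100HG under H3K4me3 was embedded in H3K9Ac and H3K4me1. The H3K9Ac peak was 75747 bp wide (chr11:122006052-122081798, fold enrichment 7.72) and the H3K4me1 peak 85275 bp (5.92), and both were the second widest in their lists. The strongest CTCF peak over any of the hosts, of 18.6, lay inside the H3K4me3 peak. MIR100, its neighbour MIR10526 and MIRLET7A2 lay under both wide peaks, MIR100 and MIRLET7A2 49.6 and 55.3 kb from the internal H3K4me3 peak and 404.4 and 410.1 kb from the canonical start. The canonical transcript did not span MIR100, MIR10526, MIRLET7A2 or MIR125B1. The starts of ENSG00000286023 and ENSG00000286497, beyond the 3′ end of the gene, lay under an H3K4me1 peak of 3.84. MIR125B1, 102.1 kb from the internal H3K4me3 peak, lay under an H3K9Ac interval of 4.28 that was not past the limits. Other starts were nearer to MIR125B1. A passing H3K4me1 peak of 10228 bp (chr11:121971417-121981644, fold enrichment 5.44) just upstream of it held the starts of 30 transcripts of the host. An H3K36me3 interval of 68642 bp over all 4 microRNA genes had a fold enrichment of 4.09 and was not past the limits either.

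At MIR99AHG the TSS lay in a weak H3K27me3 interval of 1449 bp with a fold enrichment of 2.98, not past the limits. MIR99A, MIRLET7C and MIR125B2, 610.7, 611.4 and 661.8 kb from the TSS, lay under no interval of any of the 6 lists. The rest were 1 more H3K27me3 interval (2.50) and 3 CTCF intervals (5.38 to 6.49), 0 of them past the limits.

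**Figure D4:**
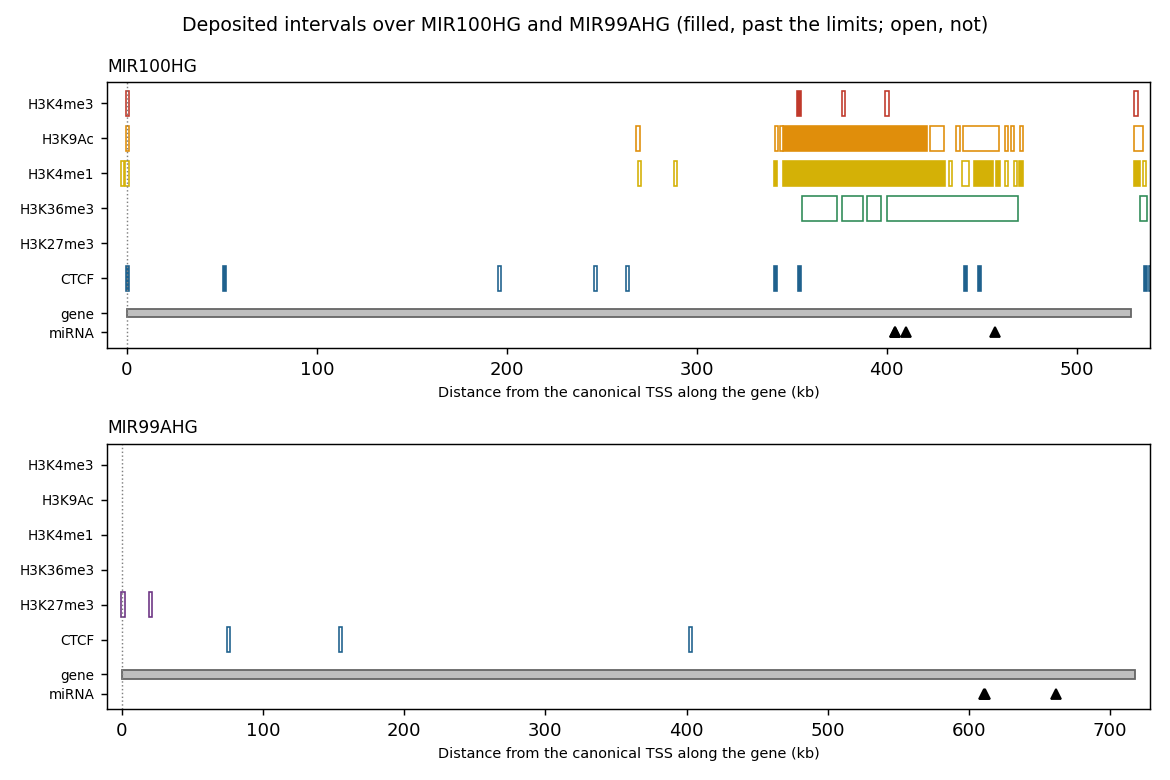
Intervals of the 6 lists over MIR100HG and MIR99AHG, drawn to scale by distance from the canonical TSS in kb, filled where past the limits and open where not, with the paralogous microRNAs marked. The passing H3K4me3 and H3K9Ac peaks of MIR100HG lie over the internal start about 353 kb from the canonical TSS. Passing H3K4me1 peaks also lie further downstream, and passing CTCF peaks reach from the canonical TSS to beyond the 3′ end. Of the 5 MIR99AHG intervals 0 are past the limits.

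MIR155HG (chr21:26934122-26947480, plus strand, 13.4 kb) had 2 intervals, 0 of them past the limits. The H3K4me1 interval (chr21:26946135-26946871) lay over the mature arms of MIR155 in the last part of the gene, with a fold enrichment of 3.84, and missed the limits at a −log10 q of 2.98. The H3K36me3 interval had a fold enrichment of 2.84. For H3K4me1 the weakest interval over the hosts to pass, in MIR100HG, had a fold enrichment of 3.77 at a −log10 q of 3.21. At the same edge for H3K9Ac stood a MIR31HG peak inside (7.43, −log10 q 12.8) and a MIR210HG interval outside (6.23, 9.75), and for H3K27me3 a pair at MIR17HG (3.81 and 3.39). The promoter is shown as that of a host with no promoter mark in these cells. Its RefSeq start lies 335 bp inside the GENCODE one, and its 300 bases (chr21:26934207-26934506, plus strand, CpG in capitals) held 20 CpG and 1 ACGTG, against a median of 14 CpG over all RefSeq promoters:
MIR155HG promoter: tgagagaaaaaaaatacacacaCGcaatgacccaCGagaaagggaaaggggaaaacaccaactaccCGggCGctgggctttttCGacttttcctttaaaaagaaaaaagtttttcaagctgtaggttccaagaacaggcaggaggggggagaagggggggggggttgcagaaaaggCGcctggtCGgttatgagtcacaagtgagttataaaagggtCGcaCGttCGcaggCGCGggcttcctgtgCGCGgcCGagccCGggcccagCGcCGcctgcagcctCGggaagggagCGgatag

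Of the 21 microRNA genes themselves, 11 lay at least 1 bp under a passing H3K9Ac peak, against 7.67% of 3049 annotated microRNA genes, and 10 under H3K4me1 (8.86%). H3K4me3 lay over 1 (5.54%), CTCF over 1 (2%), and H3K36me3 (0.295%) and H3K27me3 (1.34%) over 0. The hosts were chosen on these lists, so the counts are a description. In the H3K36me3 list 15 of them lay under an interval that was not past the limits. The share over all annotated microRNA genes was not counted for such intervals. Neighbours lay under the same interval here too, so nothing is read from that count. The 6 microRNAs of MIR17HG made up most of those under H3K9Ac, and as neighbours under 1 peak they are not separate observations.

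The CpG content around the canonical TSS did not order all the hosts as H3K4me3 did, though MIR17HG and MIR210HG were highest by both. The ratio of observed to expected CpG within 500 bp of the canonical TSS was 0.981 at MIR17HG, 0.849 at MIR210HG, 0.824 at MIR31HG, 0.789 at MIR155HG, 0.569 at MIRLET7BHG, 0.550 at MIR100HG, 0.330 at MIR22HG and 0.0716 at MIR99AHG, against a median of 0.314 over all genes. MIR155HG, above 85.2% of all genes, had no H3K4me3 interval. MIR22HG, near the median, had an H3K4me3 peak of 20.5. The RefSeq start of MIR22HG lay under the same peak, 964 bp inside the gene from the canonical TSS. Its 300-base promoter held 32 CpG, more than 81.1% of RefSeq promoters, so the place of MIR22HG depends on the start taken. The E-box CACGTG, a site for MYC and its relatives, was in 7.26% of RefSeq promoters and in none of the RefSeq promoters of the 8 hosts. These promoters span 250 bases before the RefSeq start and 50 after it, and E-boxes elsewhere in the hosts were not searched.

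**Figure D5:**
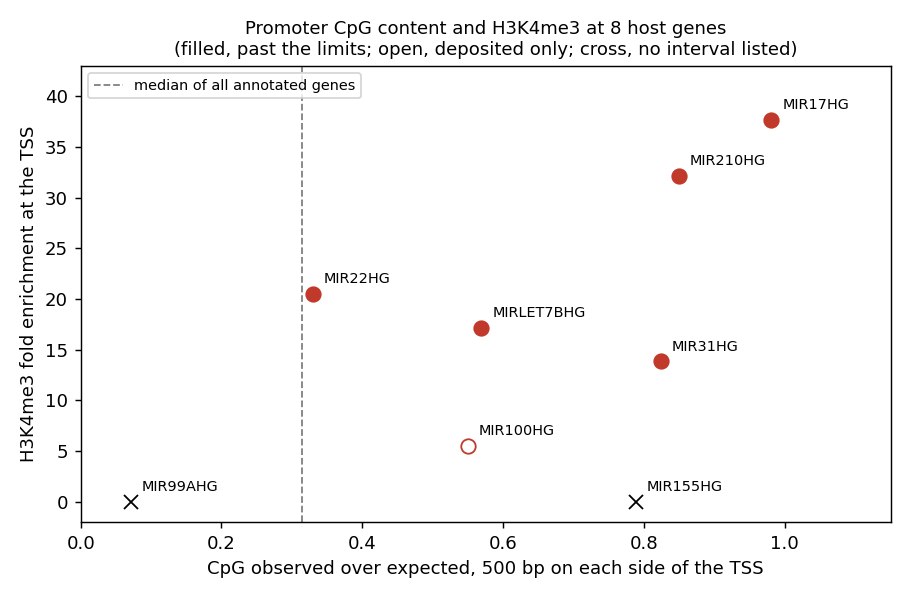
H3K4me3 fold enrichment at the TSS (vertical axis) against the ratio of observed to expected CpG within 500 bp of it (horizontal axis) for the 8 hosts, filled where past the limits, open where not, and a cross at 0 where no interval is listed. MIR155HG stands at 0.789 with no H3K4me3 peak and MIR22HG at 0.330 with one.

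CTCF peaks over the hosts were searched on both strands for an exact 12-base form of the CTCF core motif. Looser forms of the motif were not searched. Of the 17 passing peaks 4 held the pattern, beside 22.4% of 24536 passing peaks in the genome and 0.591% of the same intervals moved by 10000 bp. Of 16 CTCF intervals not past the limits 2 held it, both of them in MIR99AHG. The matches in passing peaks are shown with 8 bases on each side and the core in capitals, and a match is a description and not a measured contact:
MIR210HG flank, chr11:555072-555083: cgacagggCCACCAGGGGGCagctacgg
MIRLET7BHG flank, chr22:46518485-46518496: tggcttgaCCACCAGGTGGCgcctggtg
MIR100HG body, chr11:121979101-121979112: gctctagaCCAGTAGGGGGCagtgtttg
MIR31HG body, chr9:21466108-21466119: agtttgaaCCAGTAGAGGGCagaataac

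The highest CTCF values over the hosts, 18.6 in MIR100HG and 17.2 in MIR17HG, were of peaks without a match, which says only that the pattern was absent.

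The genes that process and use microRNAs were read from the same lists. Of 18 such genes 16 had a passing H3K4me3 peak at the TSS, against 59.1% of protein-coding genes, and 16 an H3K9Ac peak, against 58.5%. The H3K4me3 values ran from 13.6 at TNRC6B, a silencing scaffold, to 35.9 at AGO1, an Argonaute that holds the mature strand, with DROSHA at 24.2, DGCR8 at 25.2 and DICER1 at 32.7. LIN28A and LIN28B, the let-7 inhibitors, had no H3K4me3 interval at the TSS. LIN28A had a passing H3K4me1 peak of 4.13 there and an H3K9Ac interval of 3.73 not past the limits. LIN28B had no interval of any list there. Of 8 colon epithelium markers 5 (CDX2, CDH1, EPCAM, KRT8 and KRT18) had H3K4me3 at the TSS, a share near that of protein-coding genes, and VIL1, CDX1 and KRT20 had no H3K4me3 interval there. Within 1 kb of the TSS, PTPRC of blood cells had no interval of any list, and COL1A2 of fibroblasts had a CTCF peak of 9.69 alone. The bodies of these genes were not searched, and PECAM1 of endothelium, also planned as a marker, had no value. The count of markers therefore does not settle the cell type, which was taken from the label.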

How the data were processed

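HCT116 chromatin was immunoprecipitated with 7 antibodies, 1 library each, and the deposited broad peak lists of 6 were used. Per the labels and methods the authors aligned reads of 75 bases with BWA (0.7.12) to the hg19 build and ran MACS2 in broad mode, with a cutoff of 0.1, against input, while the submitters' processing notes list MACS 1.4.2. The deposited values used were the fold enrichment, a ratio over input, and the −log10 q-value; the −log10 p-value and the score the authors also deposited were not used. Limits followed the study's methods. Intervals were joined to GENCODE 44 genes on hg19 with an overlap of at least 1 bp, in Python 3.11.15 with pandas 2.3.3, checked with bedtools 2.31.1 (0 of 6 lists differed) and tested on simulated data. RefSeq sequences (tables of GRCh38.p14) were placed on hg19 by exact match. Of 21 microRNA genes, 18 were placed by hairpin and 3 by their mature arms. The hosts and gene lists were chosen with earlier results of these data known. All 8 hosts, their microRNAs and the genes starting under their passing peaks were named. Depth is not in the files, and H3K27Ac was not analysed here.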

Additional observations from a re-analysis of the deposited data

How the results depend on the processing

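Of 36 counts of hosts with a peak at the TSS under the alternatives, 30 stayed within 1.5 times of the reported count, that ratio included, and 6 moved by more. At exactly 1.5 times, CTCF was at 3 hosts in place of 2 with the limits set for the other marks (MIR31HG added) and with a window of 5 kb (MIR22HG added). MIR100HG joined the H3K4me3 and H3K9Ac hosts, 6 in place of 5, with all deposited intervals, with the limits set for the other marks and with the TSS of any transcript. It joined the H3K4me1 hosts, 6 in place of 5, with all deposited intervals and with the TSS of any transcript. With all deposited intervals H3K36me3 was at 1 host (MIR31HG) in place of 0, H3K27me3 at 2 (MIR99AHG added) in place of 1, and CTCF at 4 (MIR210HG and MIR31HG added) in place of 2. The shares of all annotated genes in that setting were 10.2% for H3K36me3, 10.4% for H3K27me3 and 16.2% for CTCF. They were 27.5% for H3K4me3, 31.2% for H3K9Ac and 31.3% for H3K4me1. Under the limits set for the other marks, H3K4me1 was at 3 hosts in place of 5 and H3K27me3 at 0. With a window of 500 bp H3K27me3 was at 0. The H3K27me3 call at MIR17HG therefore depends on the window and the limits. Of 42 other counts 30 stayed within 1.5 times, among them, at exactly 1.5, the passing peaks over the gene bodies alone of H3K9Ac (8 in place of 12) and H3K4me1 (16 in place of 24). With all deposited intervals, those over the hosts were 35 for H3K9Ac, 37 for H3K4me1, 17 for H3K36me3, 7 for H3K27me3 and 33 for CTCF. In that setting 15 microRNA genes lay under H3K36me3, for which no share over all annotated microRNA genes was counted. With flanks of 50 kb the passing peaks were 23 for H3K4me3, 22 for H3K9Ac and 42 for H3K4me1, and over the gene bodies alone 0 for H3K27me3 and 11 for CTCF. Within 1 kb of a passing H3K4me3 peak lay 7 microRNA genes. No paired analysis was possible because there was 1 library to a mark.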
